A study of Homo sapiens with 18 samples.

Results

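The small GTPases of the RAS family are switched on when exchange factors load them with GTP and switched off when GTPase activating proteins make them hydrolyse it. The genes described here are 10 such regulators. RASA1, RASA2, RASA3, RASAL2, NF1 and DAB2IP encode 6 GTPase activating proteins (GAPs), and SOS1, SOS2, RASGRP1 and RASGRP3 encode 4 guanine nucleotide exchange factors (GEFs). They were taken by symbol from the count tables of both experiments, and all 10 were found among the 55765 gene symbols of each table. GAPs act as brakes on growth factor signalling, and loss of NF1 or of DAB2IP is known to raise RAS activity in tumours. SOS proteins are brought to activated receptor tyrosine kinases by the adaptor GRB2, whereas RASGRP proteins are drawn to membranes by the lipid diacylglycerol and are best known from lymphocytes.

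RNA was sequenced from OVCAR3, an established cell line of human high-grade serous ovarian cancer that was grown as an adherent culture in RPMI medium with 2% fetal bovine serum. The question was how these epithelial tumour cells respond to IgA, which they take up through the polymeric immunoglobulin receptor. In a first series of 9 libraries, cells received non-specific IgA or non-specific IgG at 0.5 µg/ml, beside untreated cells. The 9 libraries of a second series came from cells given IgA against the neurotrophin BDNF, cells given IgA against the tetraspanin TSPAN7, each at 0.5 µg/ml, and cells without antibody. Each of the 6 groups had 3 libraries. All groups used the same cell line with no genetic change, and treatment lasted 24 h by the labels, although another description of these experiments gives a shorter time. Every library came from 1 cell line. The authors give 3 experiments for the first series and describe replicates only in general terms for the second. The labels do not state separate cultures in either series. P-values therefore measure the spread between libraries, which may be technical where libraries were not separate cultures.

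Libraries held between 27920733 and 42371474 counts in the first series and between 39254350 and 47381836 in the second. The 6 epithelial and Müllerian markers fixed for OVCAR3 (PAX8, WT1, MUC16, EPCAM, KRT8, KRT18) were above 0 in every library. The libraries given non-specific IgA stood apart from the rest of their series in WT1. It lay between 24.8 and 78.9 CPM (counts scaled to a common library total) in them. In the other libraries of the first series WT1 was at 126 to 149. The summed CPM of the 6 markers overlapped between these groups. The sum was 3450 to 4970 with IgA, 4010 to 5110 with IgG and 4030 to 5520 in untreated cells. IgA replicate 3 had the lowest WT1 but the highest sum of the IgA libraries. A sum does not show each marker. Mitochondrial genes supplied 19.1% of the counts of IgA replicate 3, while the other 2 IgA libraries had 7.40% and 5.75% and the remaining 6 libraries 6.74% to 8.32%. The part of these shifts in the results below was not tested. Changes of the members called with IgA, of RASAL2 and of some list medians are given with and without IgA replicate 3. Most other results are given only with it. In bulk RNA, fewer cells that express a gene and less RNA per cell cannot be told apart.

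In untreated cells NF1 was the most abundant regulator per length. Its level was 36.7 ± 4.3 CPM per kilobase of its canonical transcript (SD, n = 3) in the first series, and SOS1 followed at 17.0 ± 0.753. RASA1 came next at 10 ± 0.816, ahead of DAB2IP at 7.77 ± 0.682, SOS2 at 7.19 ± 0.466 and RASAL2 at 7.15 ± 0.280. The last 3 of these did not differ beyond their spread. RASA2 reached 5.48 ± 0.263. RASA3 was far lower at 1.35 ± 0.0291 and RASGRP1 lower again at 0.825 ± 0.140, with RASGRP3 almost absent at 0.0385 ± 0.0142. When the length of all merged exons was used instead, NF1, RASA1 and SOS1 led in that order and RASA3, RASGRP1 and RASGRP3 stayed the lowest of the 10. The exchange factors best known from lymphocytes were the scarcest members. The leukocyte markers PTPRC, CD3E, CD79A and LYZ together reached only 0.310 to 1.57 CPM in any library, with CD3E at 0 in every library except IgG replicate 1.

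The untreated cells of the second series, which were deposited in a separate table, gave a similar order per kilobase of canonical transcript. NF1 stood at 31.6 ± 0.461, SOS1 at 19.7 ± 0.173, RASA1 at 9.70 ± 0.0928 and RASAL2 at 8.51 ± 0.266 (SD, n = 3). SOS2 at 6.46 ± 0.118 and DAB2IP at 6.15 ± 0.320 overlapped, and RASA2 was at 5.87 ± 0.208. RASA3 had a level of 4.62 ± 0.223 in this table and of 1.35 ± 0.0291 in the first. RASGRP1 was at 1.14 ± 0.138 and RASGRP3 at 0.0906 ± 0.0155. The tables were not tested against each other.

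Non-specific IgA moved 4 of the 9 regulators that could be tested, 3 upwards and 1 downwards, in comparison with IgG and again in comparison with untreated cells. RASA3 was 1.96 times its level with IgG, RASGRP1 was 1.60 times and RASA1 1.46 times, whereas DAB2IP fell to 0.624 times. Across all 18012 genes tested, 24.2% were called against IgG at an adjusted p under 0.05, 12.6% higher and 11.6% lower. Against untreated cells 25.0% were called, 12.9% higher and 12.1% lower. The comparisons share the IgA libraries, so their results are not independent of each other. The values that follow are normalised counts, obtained by scaling each library to the same effective size, the mean of its series.

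RASA3 encodes a membrane-bound GAP that acts on RAS and on its relative RAP. Its gene lies on the minus strand of chromosome 13 (GRCh37, chr13:114747194-114898098). Normalised counts in IgA replicates 1, 2 and 3 were 383.5, 251.8 and 513.4. The IgG libraries held 186.7, 185.7 and 211.9, and the untreated libraries 187.9, 197.6 and 190.1. All 3 IgA libraries were above all 6 others, and they differed among themselves more than the others did. The log2 fold change was 0.97 ± 0.22 (SE; edgeR quasi-likelihood test, adjusted p = 0.00809) against IgG and 0.99 ± 0.22 (adjusted p = 0.00684) against untreated cells. Without IgA replicate 3 the change was 0.70 (adjusted p = 0.0161) and 0.72 (adjusted p = 0.0134).

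RASA1 encodes the prototype RAS GAP, which binds phosphorylated growth factor receptors through its SH domains. The gene is on the plus strand of chromosome 5 (GRCh37, chr5:86563700-86687748), and 771 bases of its exons overlap the antisense gene CCNH. The counting is not stated to use strand, so reads there cannot be assigned to either gene. IgA replicates 1, 2 and 3 gave 1805, 2282 and 2513 normalised counts of RASA1. The IgG libraries gave 1595, 1419 and 1492, and the untreated libraries 1489, 1766 and 1561. The groups did not overlap, although the lowest IgA library exceeded the highest untreated library by little. RASA1 changed by 0.55 ± 0.13 (log2, SE) against IgG (edgeR, adjusted p = 0.00813) and 0.45 ± 0.13 against untreated cells (adjusted p = 0.0202). Without IgA replicate 3 it was 0.44 (adjusted p = 0.0153) and 0.35 (adjusted p = 0.0447).

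The RASA1 call was less firm than that of RASA3. Scaling by library size alone lowered the change to 0.31 (adjusted p = 0.115) against IgG and to 0.24 (adjusted p = 0.226) against untreated cells, neither called. Leaving out untreated replicate 1 or 3 also ended the call against untreated cells, at 0.40 (adjusted p = 0.0932) and 0.44 (adjusted p = 0.075). With that scaling the median change over all genes moved to -0.25 against IgG and -0.22 against untreated cells, from -0.01 in both with TMM scaling. The share of called genes that were higher dropped with it from 51.9% to 19.4% against IgG and from 51.4% to 23.3% against untreated cells.

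DAB2IP was the only member called lower in the fit reported. It encodes a GAP that also serves as a scaffold in tumour necrosis factor signalling and is known as a tumour suppressor. The gene lies on the plus strand of chromosome 9 (GRCh37, chr9:124329336-124547809). IgA replicates 1, 2 and 3 held 1107, 1349 and 886.2 normalised counts. IgG libraries held 1755, 1785 and 1828, and untreated libraries 1738, 1936 and 1631. Every IgA library was below every other library of the series. The log2 fold change was -0.68 ± 0.14 (95% interval -0.98 to -0.38; edgeR, adjusted p = 0.00379) against IgG and -0.66 ± 0.14 (adjusted p = 0.00416) against untreated cells. It was -0.54 (adjusted p = 0.00393) and -0.53 (adjusted p = 0.00454) without IgA replicate 3. RASA3 and DAB2IP were called in the same direction in all 16 alternatives of both comparisons.

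Promoter windows of the members, among them the 4 genes that moved, were examined for motifs of factors that act downstream of receptor signalling. RefSeq windows (GRCh38.p14) reach from 250 bases before to 50 bases after a transcript start, and 17 windows of 9 of the 10 genes were listed. They were placed on GRCh37 by exact match. The motifs searched on both strands were TGANTCA (AP-1), CCGGAAG (ETS), TGACGTCA (CRE) and the NF-kB consensus. Over all 35116 RefSeq windows of this length, 7.71% held the AP-1 motif, 10.3% the ETS motif, 1.85% the CRE motif and 11.3% the NF-kB motif. The single windows of RASA1 and RASGRP1 held none of the 4. Their starts lay 1054 and 761 bases inside the genes, so the sequence at the gene starts was not searched. An NF-kB match was found in 1 of the 2 windows of RASA3 and in 1 of the 3 windows of DAB2IP, a gene that rose and a gene that fell. These windows are shown because they are the only ones of the moved genes with any of the 4 motifs, with the match in capitals. That of RASA3 (chr13:114898049-114898348, minus strand) has the match on the opposite strand, its first base at -33 from the start. That of DAB2IP (chr9:124413663-124413962, plus strand) belongs to a start 84577 bases inside the gene, with the match at -162. Among the other members, RASGRP3, not tested in this series, also held an NF-kB match. NF1, which was not called, held an ETS and a CRE match. A match is a string of letters and not a bound site.
RASA3: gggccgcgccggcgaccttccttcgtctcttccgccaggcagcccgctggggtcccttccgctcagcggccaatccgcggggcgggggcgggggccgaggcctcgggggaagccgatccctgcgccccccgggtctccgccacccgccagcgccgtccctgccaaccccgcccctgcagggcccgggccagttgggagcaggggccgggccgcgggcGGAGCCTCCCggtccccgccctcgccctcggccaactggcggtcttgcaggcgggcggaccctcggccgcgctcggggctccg
DAB2IP: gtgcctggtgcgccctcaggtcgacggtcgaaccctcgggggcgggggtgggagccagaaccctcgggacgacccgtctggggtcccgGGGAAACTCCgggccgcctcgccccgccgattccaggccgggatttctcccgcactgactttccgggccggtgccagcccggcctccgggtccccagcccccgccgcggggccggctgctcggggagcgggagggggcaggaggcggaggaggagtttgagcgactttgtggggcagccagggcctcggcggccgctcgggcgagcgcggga

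RASGRP1 encodes a diacylglycerol-responsive exchange factor and is the only one of the 4 GEFs that was called. The gene is on the minus strand of chromosome 15 (GRCh37, chr15:38780304-38857776). IgA replicates 1, 2 and 3 had 197.3, 220.8 and 259.1 normalised counts of RASGRP1. IgG libraries had 144.7, 114.7 and 163.6, and untreated libraries 152.6, 113.5 and 153.9. All 3 IgA libraries were higher than all 6 others. RASGRP1 rose by 0.68 ± 0.21 (log2, SE) against IgG (edgeR, adjusted p = 0.0353) and 0.69 ± 0.21 against untreated cells (adjusted p = 0.0323). This was the least stable of the calls. It was kept in 9 of 16 alternatives of each comparison, and without IgA replicate 3 it was lost, at 0.57 (adjusted p = 0.0671) against IgG and 0.58 (adjusted p = 0.0621) against untreated cells.

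Other libraries also decided whether RASGRP1 was called. Against IgG the adjusted p was 0.0814 without IgG replicate 1 (log2 fold change 0.69) and 0.152 without IgG replicate 2 (0.54). Against untreated cells it was 0.0659, 0.129 and 0.0627 without untreated replicates 1, 2 and 3 (0.75, 0.55 and 0.76). The change was positive in each of these fits. The summed leukocyte markers lay between 0.537 and 1.57 CPM with IgA, 0.523 and 0.905 with IgG, and 0.594 and 0.751 in untreated cells. By library the sum was 1.35, 1.57 and 0.537 CPM in IgA replicates 1, 2 and 3. The part of these markers in the RASGRP1 change was not tested.

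**Figure D1:**
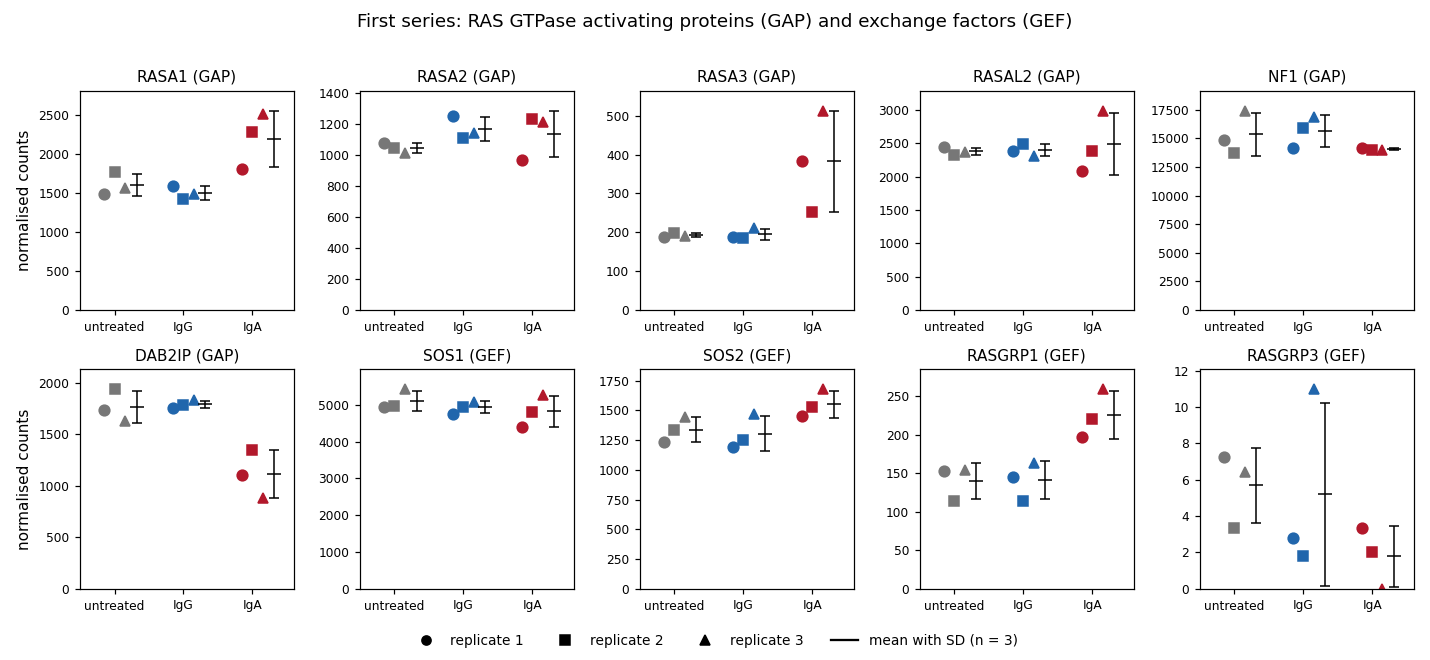
Normalised counts (y axis, starting at 0, with its own scale for each gene) of the 6 GAP and 4 GEF genes in the 9 libraries of the first series. Each symbol is a library, and the bar at its right is the group mean with SD (n = 3). RASA1, RASA3 and RASGRP1 are higher in all 3 libraries given IgA than in all 6 others and DAB2IP is lower, and IgA replicate 3 (triangle) is the farthest from the controls in these 4 genes.

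IgA replicate 3 was the IgA library farthest from both control groups for each of the 4 genes called. It was also the library with the 19.1% mitochondrial share. RASA1, RASA3 and DAB2IP were still called without it. RASAL2, which was not called, had its highest value of the series in this library, with 2989 normalised counts against 2078 and 2381 in IgA replicates 1 and 2. Its log2 fold change of 0.05 against IgG and 0.06 against untreated cells turned to -0.11 and -0.09 when the library was left out.

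The GAPs NF1, RASA2 and RASAL2 and both SOS genes gave no call with IgA. NF1, the neurofibromin gene (plus strand of chromosome 17, GRCh37, chr17:29421945-29709134), shares 360 exon bases with the antisense gene EVI2A. It had 14180, 13960 and 14020 normalised counts with IgA, 14160, 15880 and 16880 with IgG, and 14870, 13760 and 17430 in untreated cells. The IgA libraries were close to each other, and the groups overlapped. The log2 fold change was -0.15 against IgG (95% interval -0.39 to 0.08) and -0.13 against untreated cells (-0.36 to 0.10). SOS1, on the minus strand of chromosome 2 (GRCh37, chr2:39189347-39351486), shares 1254 exon bases with the gene SOS1-IT1 on the same strand. SOS1 had 4402, 4800 and 5257 normalised counts with IgA, 4758, 4947 and 5090 with IgG and 4928, 4967 and 5420 in untreated cells. Its 95% intervals ran from -0.24 to 0.17 against IgG and from -0.29 to 0.12 against untreated cells.

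SOS2, the close relative of SOS1 (GRCh37, chr14:50583848-50698296, minus strand), was nearer to a call. Normalised counts were 1454, 1524 and 1676 with IgA, 1193, 1247 and 1469 with IgG, and 1236, 1333 and 1445 in untreated cells. IgA exceeded every untreated library and overlapped with IgG at a single library. Its log2 fold change was 0.25 ± 0.11 (edgeR, adjusted p = 0.128) against IgG and 0.21 ± 0.11 (adjusted p = 0.196) against untreated cells. RASA2, a GAP related to RASA3 (GRCh37, chr3:141205869-141334186, plus strand), gave 964.2, 1232 and 1212 with IgA against 1251, 1107 and 1140 with IgG and 1079, 1041 and 1010 in untreated cells. IgA replicate 1 was the lowest of the 9 libraries and the other 2 were among the highest, with log2 fold changes of -0.04 against IgG and 0.12 against untreated cells. RASAL2, a GAP known as a tumour suppressor (GRCh37, chr1:178063239-178453282, plus strand), had 2378, 2494 and 2312 normalised counts with IgG and 2439, 2323 and 2365 in untreated cells.

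RASGRP3, another diacylglycerol-responsive GEF, was too low to test in the first series. The gene (GRCh37, chr2:33661391-33789817, plus strand) shares 1469 exon bases with the antisense gene FAM98A, so part of its few counts may belong to either. Raw counts were 3, 2 and 0 with IgA, 3, 2 and 10 with IgG and 7, 4 and 8 in untreated cells. A count of 0 allows up to 3 counts, and no difference was detectable at this depth.

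No regulator was called with IgG against untreated cells. None of the 9 members tested passed, beside 0 of 18012 genes (percent called: 0) with edgeR and 0 with DESeq2, while 89 genes, or 0.494%, had an unadjusted p under 0.05. That is fewer than this threshold would mark with no difference between groups. The fit shared its spread per gene with the IgA libraries, so small differences may have been missed. Fitted alone, the 6 IgG and untreated libraries also gave 0 called genes. When these 6 libraries were fitted alone with the replicate number as a block, 5 genes were called, all lower, and again no member. Log2 fold changes lay between -0.10 for RASA1 and 0.16 for RASA2. RASA3 changed by 0.02 (95% interval -0.46 to 0.51), DAB2IP by 0.02 (-0.28 to 0.31) and RASGRP1 by 0.01 (-0.45 to 0.47). RASA2 was the only member whose groups did not overlap, at a log2 fold change of 0.16 (interval -0.09 to 0.41), and 6.75% of all genes had groups that did not overlap.

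The groups of IgA and IgG libraries did not overlap for 4 of the 9 members, the same 4 that were called, against 40.3% of all genes tested. For IgA and untreated libraries this was so for 5 of 9, SOS2 being the fifth, against 39.9%. The members' median log2 fold change was 0.05 against IgG and 0.12 against untreated cells, beside medians of all genes of -0.015 and -0.012. With 4 of 9 called in either comparison, the members are set against 24.2% and 25.0% of all genes called, and nothing particular to them is read from these counts.

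**Figure D2:**
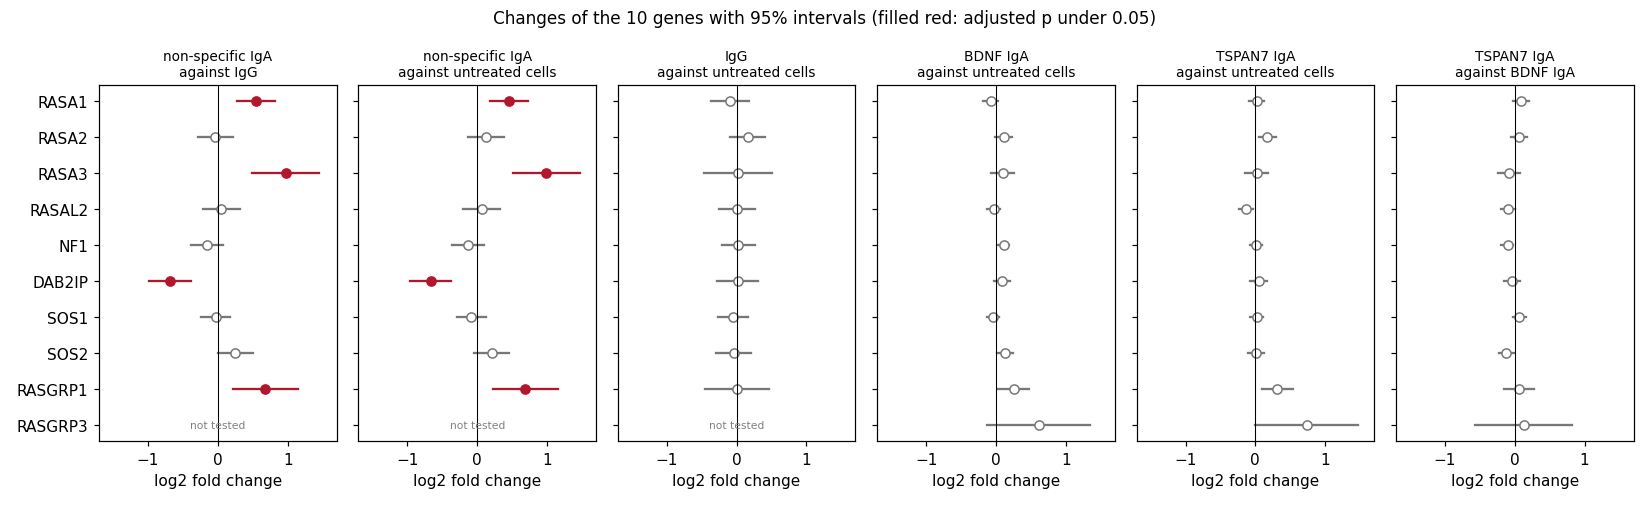
Log2 fold changes (x axis) of the 10 genes in the 6 comparisons, with 95% intervals from the edgeR fit. Filled red points have an adjusted p under 0.05; these are RASA1, RASA3, RASGRP1 and DAB2IP in both comparisons of non-specific IgA and none in the other 4 comparisons, and RASGRP3 was not tested in the first series.

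**Figure D3:**
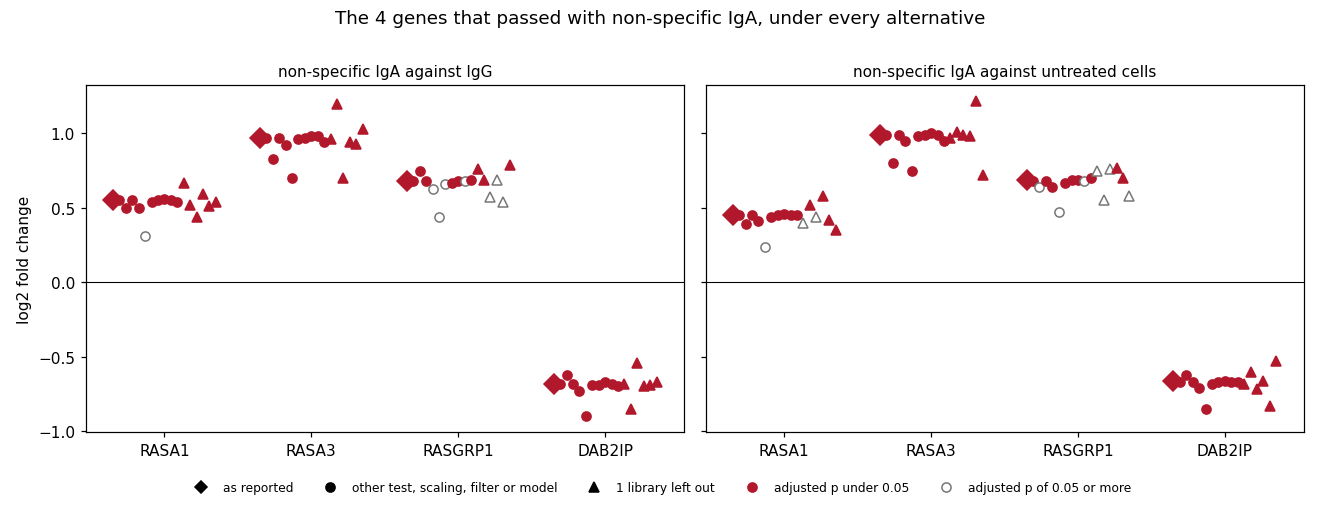
Log2 fold changes (y axis) of the 4 called genes in the fit reported (diamond), in 10 fits with another test, scaling, filter or model (circles) and in 6 fits with 1 library left out (triangles), for non-specific IgA against IgG and against untreated cells. Every point keeps its sign; RASA3 and DAB2IP are filled red (adjusted p under 0.05) throughout, RASA1 loses the call in 1 and 3 fits and RASGRP1 in 7 of 16 fits of each comparison.

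IgA against a defined antigen was examined in the second series, in which replicates were closer. The common dispersion, the squared relative spread between replicates beyond counting noise, was 0.00303 there and 0.0307 in the first series, so smaller differences could be seen. None of the 10 members was called with BDNF IgA, with TSPAN7 IgA or between them. Over all 18732 genes tested, 7.67% were called with BDNF IgA, 8.54% with TSPAN7 IgA and 7.92% between the antibodies. The antibodies were compared with the same 3 untreated libraries.

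The genes called with non-specific IgA in the first series are given first. RASA3 had 781.1, 889.0 and 983.7 normalised counts in BDNF IgA replicates 1, 2 and 3. With TSPAN7 IgA it had 875.8, 783.1 and 853.1, and untreated cells had 838.8, 778.9 and 862.4. The 3 groups overlapped. Its log2 fold change was 0.10 with BDNF IgA (95% interval -0.07 to 0.26) and 0.02 with TSPAN7 IgA (-0.15 to 0.18). The difference between this response and the one to non-specific IgA was not tested, because the series were never fitted together.

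DAB2IP had 1883, 1886 and 1852 normalised counts with BDNF IgA, 1942, 1691 and 1839 with TSPAN7 IgA and 1690, 1862 and 1751 in untreated cells. These values overlapped, with log2 fold changes of 0.08 (95% interval -0.03 to 0.20) and 0.05 (-0.07 to 0.16). RASA1 had 1907, 1920 and 1773 with BDNF IgA, 1931, 2055 and 1971 with TSPAN7 IgA and 1978, 1957 and 1951 in untreated cells. All 3 BDNF IgA libraries were below all untreated libraries, but by a log2 fold change of only -0.07 (-0.18 to 0.03), and TSPAN7 IgA gave 0.02 (-0.09 to 0.12).

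Against untreated cells RASGRP1 had the largest log2 fold changes of the members apart from the scarce RASGRP3. It had 303.1, 275.7 and 289.9 normalised counts with BDNF IgA, 313.6, 309.9 and 283.6 with TSPAN7 IgA, and 276.6, 232.6 and 221.2 in untreated cells. TSPAN7 IgA libraries were all above the untreated ones, and 1 BDNF IgA library lay just inside the untreated range. The log2 fold change was 0.31 ± 0.11 (edgeR, adjusted p = 0.0748) with TSPAN7 IgA and 0.25 ± 0.11 (adjusted p = 0.164) with BDNF IgA. Without untreated replicate 1, the highest of its group, the TSPAN7 IgA change was 0.42 (adjusted p = 0.0383). RASGRP3 had raw counts of 29, 22 and 30 with TSPAN7 IgA, 17, 22 and 40 with BDNF IgA and 20, 15 and 17 in untreated cells. Its log2 fold change with TSPAN7 IgA was 0.73 ± 0.35 (adjusted p = 0.228), with a 95% interval from -0.002 to 1.47.

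RASA2 had 1617, 1593 and 1548 normalised counts with TSPAN7 IgA, 1502, 1625 and 1427 with BDNF IgA and 1453, 1413 and 1361 in untreated cells. All TSPAN7 IgA values were above all untreated values, at a log2 fold change of 0.17 ± 0.06 (edgeR, adjusted p = 0.0712). RASAL2 had 3362, 3114 and 3299 with TSPAN7 IgA, 3556, 3429 and 3479 with BDNF IgA and 3542, 3461 and 3709 in untreated cells. It was below untreated cells in all 3 TSPAN7 IgA libraries, at -0.13 ± 0.05 (adjusted p = 0.0873). Both passed when the fit held only the 6 libraries compared, RASA2 at 0.17 (adjusted p = 0.0313) and RASAL2 at -0.13 (adjusted p = 0.0467).

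NF1 and SOS2 were the members nearest to a call with BDNF IgA. NF1 had 18010, 17480 and 18450 normalised counts with BDNF IgA, 16390, 17060 and 16770 with TSPAN7 IgA and 16530, 16440 and 17010 in untreated cells. The BDNF IgA libraries exceeded all 6 others. The log2 fold change was 0.11 ± 0.04 (edgeR, adjusted p = 0.103) against untreated cells, and TSPAN7 IgA against BDNF IgA gave -0.10 ± 0.04 (adjusted p = 0.128). SOS2 had 1710, 1574 and 1712 with BDNF IgA, 1526, 1579 and 1493 with TSPAN7 IgA and 1533, 1478 and 1536 in untreated cells, a log2 fold change of 0.14 ± 0.05 (adjusted p = 0.134). Without BDNF IgA replicate 2, the lowest of its group in both genes, NF1 changed by 0.13 (adjusted p = 0.0407) and SOS2 by 0.17 (adjusted p = 0.0382). SOS1 had 7386, 7191 and 7221 with BDNF IgA, 7242, 7929 and 7669 with TSPAN7 IgA and 7435, 7435 and 7596 in untreated cells, with log2 fold changes of -0.04 and 0.02.

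**Figure D4:**
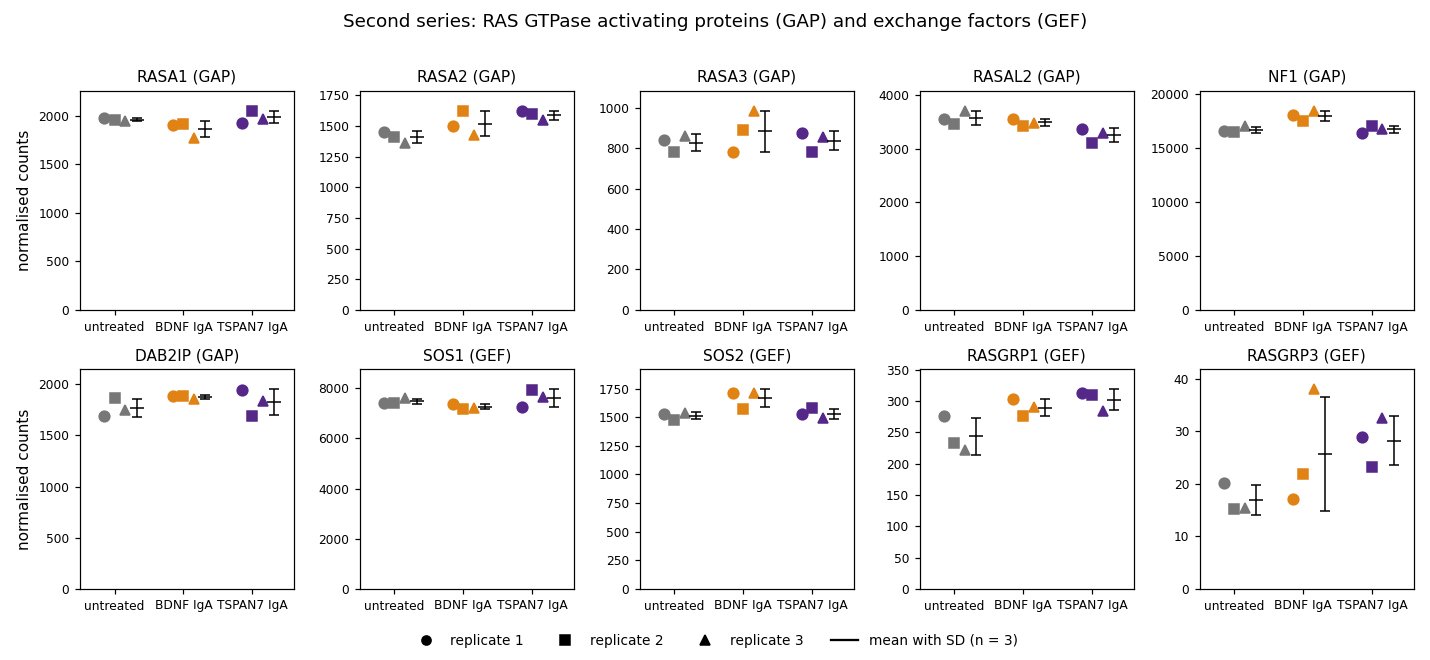
Normalised counts (y axis, starting at 0, with its own scale for each gene) of the 10 genes in the 9 libraries of the second series, with the group mean and SD (n = 3) at the right of each group. Groups lie close together; NF1 with BDNF IgA stands above all 6 other libraries, and RASA2 and RASGRP1 with TSPAN7 IgA above all 3 untreated libraries, none with an adjusted p under 0.05.

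Groups did not overlap for 4 members with BDNF IgA against untreated cells, which were RASA1, NF1, SOS1 and SOS2, beside 24.8% of all genes. With TSPAN7 IgA they did not overlap for 4 members, RASA2, RASAL2, RASGRP1 and RASGRP3, beside 28.4%. Between the antibodies this was so for 3, RASA1, RASAL2 and NF1, beside 23.6%. Members with an unadjusted p under 0.05 (edgeR) were NF1, SOS2 and RASGRP1 with BDNF IgA and RASA2, RASAL2 and RASGRP1 with TSPAN7 IgA. Between the antibodies they were RASAL2, NF1 and SOS2. The share of all genes at this threshold was 22.1%, 22.1% and 22.5% in these comparisons. None of these members was called with edgeR. DESeq2 called none of the members either, whereas limma voom with library quality weights called NF1 (0.12, adjusted p = 0.0228) and SOS2 (0.15, adjusted p = 0.0491) with BDNF IgA, RASA2 (0.16, adjusted p = 0.0425) and RASAL2 (-0.14, adjusted p = 0.0357) with TSPAN7 IgA, and NF1 (-0.10, adjusted p = 0.0465) between the antibodies.

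The genes around the regulators were counted in 4 lists. With non-specific IgA 10 of the 28 that were tested (35.7%) were called in each comparison, against 24.2% and 25.0% of all genes. Of 9 further RAS GAPs and GEFs, 6 were high enough to test, and with non-specific IgA none rose while PLCE1, a phospholipase with an exchange factor domain, fell by 0.59 on the log2 scale against IgG (adjusted p = 0.0135) and by 0.58 against untreated cells. The list's median was -0.53 against IgG, where that of all genes was -0.015. It rests mostly on scarce genes, since RASA4, RASGRP2, RASGRF1 and RASGRF2 had group means between 5.533 and 25.29 normalised counts, and it was -0.82 without IgA replicate 2 and -1.11 with no filter on low counts. Of 5 RAS proteins, RRAS rose by 1.08 and RRAS2 by 0.79 against IgG (adjusted p = 0.000483 and 0.000548), and by 1.09 and 0.85 against untreated cells. They were called in all 16 alternatives of both comparisons. The median of this list was 0.28 against IgG and 0.34 against untreated cells, and its other 3 genes were not called in either comparison.

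Diacylglycerol, the signal of RASGRP1, is made by phospholipase C and is shared with protein kinase C. Of 6 genes of this control, PLCG2 rose by 1.00 and PRKCA by 0.64 against IgG (edgeR, adjusted p = 0.0015 and 0.00409) and by 1.24 and 0.75 against untreated cells, and the other 4 were not called. The list's median was 0.44 against IgG, and 0.10 without IgA replicate 3, where PLCG2 and PRKCA were still called. Of 12 genes whose proteins recruit SOS, RASA1 or NF1, 11 were tested and moved both ways. The adaptor SHC1 rose by 0.50 and the NF1 partner SPRED2 by 0.31 against IgG (adjusted p = 0.003 and 0.0249), while the docking proteins GAB1 and GAB2 and the RASA1-binding ARHGAP35 fell by 0.37, 0.67 and 0.45. Against untreated cells SHC1, SPRED2 and PTPN11 rose, the last by 0.25, and GAB2 and ARHGAP35 fell. Of the 16 alternatives against IgG, SHC1 was called in 15, SPRED2 in 9, GAB1 in 9, GAB2 in 12 and ARHGAP35 in 10. Against untreated cells SHC1 was called in 15, SPRED2 in 13, PTPN11 in 7, GAB2 in 13 and ARHGAP35 in 10. Without IgA replicate 1 no recruiter was called lower in either comparison (GAB2 -0.70, adjusted p = 0.06, and -0.70, adjusted p = 0.061), and no rise was called with library size alone. The median of this list was -0.21 against IgG and -0.19 against untreated cells, and -0.12 and -0.004 without IgA replicate 3. With library size alone the medians against IgG were -0.43 for the recruiters, 0.17 for diacylglycerol control and 0.04 for the RAS proteins, beside -0.25 over all genes. IgG against untreated cells gave no call in any list.

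In the second series, 3 of the 28 genes of these lists that were tested (10.7%) were called with BDNF IgA, 2 (7.14%) with TSPAN7 IgA and 1 (3.57%) between the antibodies, against 7.67%, 8.54% and 7.92% of all genes. With BDNF IgA, PLCG2 rose by 0.34, MRAS by 0.35 and RRAS by 0.24 on the log2 scale (edgeR, adjusted p = 0.00865, 0.00929 and 0.0375), RRAS with groups that overlapped. RRAS was called in 11 of 16 alternatives and the others in 15, and neither a recruiter nor a further GAP or GEF was called. With TSPAN7 IgA, GAB2 fell by 0.30 (adjusted p = 0.00224) and SPRED2 rose by 0.18 (adjusted p = 0.00885), and no other gene of the 4 lists was called. Between the antibodies, GAB2 was lower with TSPAN7 IgA by a log2 fold change of -0.28 (adjusted p = 0.00449). GAB2 was called in all 16 alternatives of both comparisons.

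**Figure D5:**
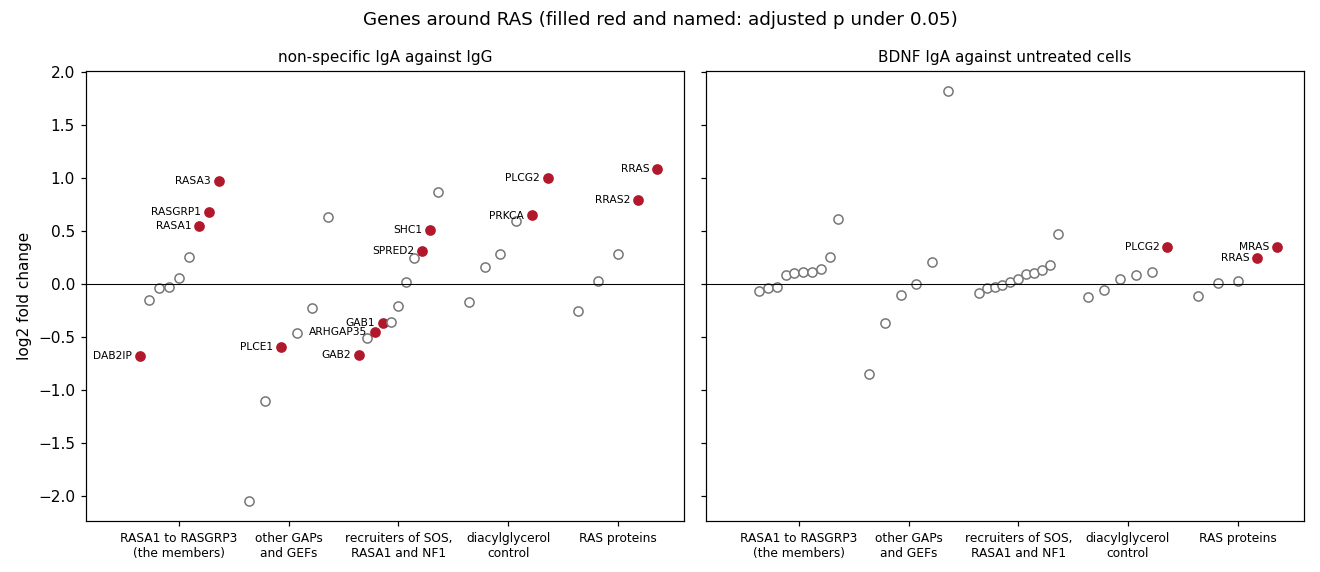
Log2 fold changes (y axis) of the members and of 4 lists of genes around RAS, each point a gene ordered by its change within its list, for non-specific IgA against IgG and for BDNF IgA against untreated cells. Filled red points with names have an adjusted p under 0.05; with non-specific IgA 4 members, PLCE1, 5 recruiters, PLCG2, PRKCA, RRAS and RRAS2 are filled, and with BDNF IgA PLCG2, RRAS and MRAS.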

How the data were processed

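Counts of OVCAR3 RNA from 18 libraries in 6 groups of 3 were used. The authors sequenced 75-base paired-end reads, trimmed them with cutadapt 1.8.1 and aligned them to GRCh37 (hg19) with STAR. The counter was named differently by the sources (featureCounts with GENCODE in the methods, HTSeq 0.6.1 in the submitters' processing notes), and use of strand was not stated. The values the authors deposited are raw counts per gene symbol, without normalization. In the second table, 2055 exact duplicate rows, with 1.99% to 2.46% of a library's counts, were dropped. Replicates differed by more than sampling noise (chi-square per degree of freedom 3.91 to 232).

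Each series was fitted with all 9 libraries in edgeR 4.0.16 (R 4.3.3; TMM, filterByExpr, two-sided quasi-likelihood test, Benjamini-Hochberg over all genes tested), and genes were called at an adjusted p under 0.05. All p-values given are adjusted in this way unless described as unadjusted. The method was tested on simulated data. Alternatives were DESeq2 1.42.0, limma 3.58.1 voom with library quality weights, other scalings and filters, no mitochondrial or ribosomal RNA genes, only the 6 libraries compared, a replicate block, and each library left out. The 10 members were named whatever their values; other genes were named from 4 lists where called. Some genes of these lists are not reported here. Members and lists were chosen with earlier results of these data known. Intervals of counts cover counting error only, since reads carried no molecular identifiers. Same-numbered IgG and untreated libraries deviated together (correlations 0.23, 0.209 and 0.645). Untreated replicate 2 was nearer to IgG replicate 1 (0.538), and untreated replicate 1 to IgG replicate 2 (0.251). Pairing by number was thus not established by the data or the labels. A block on the number was still fitted for this comparison. Positions are from GENCODE on GRCh37.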

Additional observations from a re-analysis of the deposited data

How the results depend on the processing

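RASA3 and DAB2IP kept their direction and their call in all 16 alternatives of both comparisons of non-specific IgA (RASA3 0.70 to 1.20 against IgG and 0.72 to 1.22 against untreated cells, DAB2IP -0.90 to -0.54 and -0.85 to -0.53). RASGRP1 also lost its call against IgG with upper quartile scaling (0.63, adjusted p = 0.0514), library size alone (0.44, 0.159), no filter on low counts (0.66, 0.051) and only the 6 libraries compared (0.68, 0.0638), and against untreated cells with limma voom (0.64, 0.0609), library size alone (0.47, 0.133) and only the 6 libraries compared (0.68, 0.0558). With library size alone NF1 was called lower against IgG (-0.39, adjusted p = 0.0421), and 2 members were called against untreated cells. The cause was not tested. IgG against untreated cells gave 2 called genes with no filter on low counts. In the second series limma voom called 2427 genes with BDNF IgA, 2442 with TSPAN7 IgA and 2751 between the antibodies, beside 1437, 1600 and 1484, and 2, 2 and 1 members. With only the 6 libraries compared, 2 members were called with TSPAN7 IgA.

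Leaving out a library gave 2566 to 5286 called genes for IgA against IgG, 2601 to 5229 for IgA against untreated cells, 0 for IgG against untreated cells, 734 to 2798 for BDNF IgA, 757 to 1371 for TSPAN7 IgA and 482 to 3276 between the antibodies. Members called ranged from 3 to 4, 2 to 4, 0 to 0, 0 to 2, 0 to 1 and 0 to 1 in the same order. In the first series the counts moved by over 1.5 times without IgG replicate 2 or 3 and without untreated replicate 1 or 3. In the second series they did so without BDNF IgA replicate 1, 2 or 3, TSPAN7 IgA replicate 2 or 3 or any untreated replicate. The rise to 2798 and 3276 genes came without BDNF IgA replicate 2. Each of these fits had 1 library fewer.

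Changes of sign were found only in members that were not called. With limma voom, RASAL2 was -0.07 against IgG and -0.04 against untreated cells, and for IgG against untreated cells RASA3 was -0.02 and RASGRP1 -0.11. With library size alone, RASAL2 was -0.20 against IgG, and against untreated cells RASAL2 was -0.16, RASA2 -0.09 and SOS2 -8e-04. With upper quartile scaling NF1 was -0.004 with TSPAN7 IgA. With a library left out, IgA against IgG spanned -0.11 to 0.06 for RASA2, -0.11 to 0.16 for RASAL2 and -0.10 to 0.02 for SOS1, and IgA against untreated cells -0.09 to 0.17 for RASAL2. IgG against untreated cells spanned -0.04 to 0.05 for RASA3, -0.02 to 0.04 for RASAL2, -0.05 to 0.12 for NF1, -0.04 to 0.09 for DAB2IP, -0.13 to 0.02 for SOS2 and -0.12 to 0.14 for RASGRP1. TSPAN7 IgA against untreated cells spanned -0.01 to 0.04 for RASA1, -0.02 to 0.07 for RASA3, -0.01 to 0.02 for NF1, -0.003 to 0.10 for DAB2IP, -0.01 to 0.06 for SOS1 and -0.004 to 0.04 for SOS2. TSPAN7 IgA against BDNF IgA spanned -0.16 to 0.005 for RASA3, -0.08 to 0.01 for DAB2IP and -0.09 to 0.52 for RASGRP3.

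Groups share replicate numbers. Only for IgG and untreated cells of the first series was the correlation over 0.1 in every same-numbered pair. Even there, untreated replicate 2 correlated more with IgG replicate 1 (0.538) than with IgG replicate 2 (0.209), so the numbers did not establish pairs. Deviations of same-numbered libraries from their group means correlated at -0.13 to 0.645 (first series) and -0.109 to 0.279 (second series). Libraries of different numbers gave -0.593 to 0.538 and -0.284 to 0.186. A fit of the 6 IgG and untreated libraries alone with a replicate block, chosen after seeing the data, called 5 genes and 0 members. With a replicate block in the fit of 9 libraries, 4340, 4428, 0, 1655, 1759 and 1728 genes were called, in the order above, and the members called stayed at 4, 4, 0, 0, 0 and 0 in number.

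At 3 libraries a group, differences of RASGRP3 were not detectable in the first series, where no library exceeded 10 counts of it.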
